A study of Gallus gallus with 8 samples.

Results

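The genes of chicken chromosome 16, the chromosome of the major histocompatibility complex (MHC), were followed in RNA from trunk neural crest cells after knockout of DLC1, PHF5A or SF3B1. A gene was taken as a member where the deposited count table placed it on chromosome 16 and its reads summed to at least 40 over the 8 libraries. This gave 84 members of 181 chromosome 16 features, out of 30862 features in all. Of the other 97 features, 25 held 1 to 39 reads and together the 97 held 307 reads, against 2323273 reads in the members. The members nearest the threshold held 40, 46 and 47 reads, and the nearest feature below it held 38.

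All 8 libraries came from primary, GFP-positive trunk neural crest cells of Gallus gallus, and the labels give neither the age of the embryos nor what drives GFP. Each of the 4 groups held 2 libraries, and about 50000 cells were collected per treatment. Knockouts were made with Cas9. Controls had received a scrambled guide RNA and were numbered replicates 1 and 2. Each knockout group was made of 1 library with guide 1 and 1 library with guide 2 against DLC1, PHF5A or SF3B1, so the spread within a knockout holds guide and library differences together. The labels do not say that libraries came from separate cultures, so the p-values below rest on a spread that may be technical. Each library is a cell population and not a clone, and the share of edited cells was not analysed here. Whether DLC1, PHF5A and SF3B1 RNA fell, and the levels of neural crest markers, were not analysed here either, because the deposited gene IDs could not be paired with names.

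SF3B1 and PHF5A belong to SF3b, a protein complex of the U2 snRNP that binds the intron branch point during splicing. Chromosome 16 is a microchromosome of the chicken that carries the MHC-B and MHC-Y regions and the nucleolus organiser with its ribosomal RNA genes. MHC class I and class II molecules present peptides to T cells, and the TAP transporter and tapasin load the class I molecules. In the RefSeq annotation of assembly GRCg7b, a newer build than the GRCg6a of the count table, chromosome 16 held 331 genes, of which 180 were protein-coding and 52 were ribosomal RNA genes. Among its symbols were the class I genes BF1 and BF2, the class II genes BLB1 and BLB2, the peptide transporter genes TAP1 and TAP2, and TAPBP, which encodes tapasin. The MHC-Y family (MHCY) had 16 symbols there and the TRIM family, whose proteins include ubiquitin ligases, had 8. Of the 30862 deposited IDs, 0 matched that table, so which member is which of these genes is not known here. Members are therefore numbered 1 to 84 by their start along the chromosome, with coordinates on GRCg6a as deposited. Genes of the MHC families have near-identical copies, so reads of such genes may have been divided between copies in the counting.

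The members lay between chr16:504596-2844285, 50 on the plus strand and 34 on the minus strand. Their genomic spans ran from 375 bases to 179 kb, with a median of 5.83 kb, against 15.6 kb for the other nuclear features with at least 40 reads. Of the 84 members, 45 overlapped another feature of the table, 17 of them on the same strand and 36 on the other strand, and counts of overlapping features could not be told apart with certainty. Reads were found in all 8 libraries for 80 members. The mean level over the 8 libraries was at least 100 CPM (counts scaled to a non-mitochondrial total of 1000000) in 8 members, 10 to 100 CPM in 21, 1 to 10 CPM in 39 and under 1 CPM in 16.

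Library totals followed the groups: 18226753 to 19565587 counts in the control and SF3B1 libraries and 33864758 to 34698250 in the DLC1 and PHF5A libraries. A level of 3 counts was 0.0949 to 0.211 CPM. Mitochondrial features held 21.4% and 25.9% of the control counts and 8.01% to 19.6% of the knockout counts, which is why CPM are given over non-mitochondrial counts. The W chromosome, present only in female birds, held 0.198% and 0.00279% of the non-mitochondrial counts of controls 1 and 2, and 0.0402% to 0.259% in the knockouts. The part that depth, mitochondrial share and sex makeup had in the results below was not tested, apart from a fit that includes the W share, given beside the counts. In these bulk samples, fewer cells of a type and less RNA per cell cannot be told apart.

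A pair of genes held most of the chromosome's RNA. Member 74 (chr16:2738412-2745693, minus strand) and member 52 (chr16:2525329-2530712, minus strand) together held 85.2% of all chromosome 16 reads. Member 74 stood at 7235 and 5719 CPM in the controls, 7975 and 11590 CPM in the DLC1 libraries, 8158 and 8561 CPM in the PHF5A libraries and 5996 and 6061 CPM in the SF3B1 libraries. Both DLC1 and both PHF5A libraries lay above both controls, while the SF3B1 libraries lay between the controls. Fold changes were tested with the quasi-likelihood test of edgeR, and p-values were adjusted by Benjamini-Hochberg over all tested features. None of the fold changes of member 74 against control passed, with log2 fold changes of 0.43 (SE 0.26, adjusted p = 0.265) in DLC1, 0.12 (SE 0.26, adjusted p = 0.747) in PHF5A and -0.36 (SE 0.26, adjusted p = 0.343) in SF3B1 knockouts.

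Member 52 stood at 4149 and 3648 CPM in the controls, 2601 and 3218 CPM with DLC1 guides, 1970 and 2609 CPM with PHF5A guides and 2672 and 3315 CPM with SF3B1 guides. All 6 knockout libraries lay below both controls. The fall passed the test in PHF5A knockouts, with a log2 fold change of -1.02 (SE 0.25, edgeR adjusted p = 0.0132), and did not in DLC1 (-0.59, adjusted p = 0.114) or SF3B1 (-0.64, adjusted p = 0.0964) knockouts. It was lost without control 1 (adjusted p = 0.0571) and without PHF5A guide 1 (adjusted p = 0.0706).

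The next 3 members by mean level were far lower. Member 60 (chr16:2574366-2583309, minus strand) had a mean of 390 CPM, member 77 (chr16:2763004-2767903, plus strand) 162 CPM and member 42 (chr16:2341309-2453392, plus strand) 156 CPM. Per kb of genomic span, the means were 1052 CPM for member 74, 561 for member 52, 43.6 for member 60, 33 for member 77 and 1.39 for member 42. Spans include introns, so these values are not transcript abundances per length of mRNA.

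Member 60 stood at 243 and 258 CPM in the controls, 396 and 318 CPM in DLC1, 486 and 539 CPM in PHF5A and 438 and 441 CPM in SF3B1 libraries. All 6 knockout libraries lay above both controls. Its rise passed the test in PHF5A knockouts alone, with a log2 fold change of 0.78 (SE 0.17, adjusted p = 0.00795 by edgeR). Its log2 fold change was 0.32 (adjusted p = 0.202) in DLC1 and 0.54 (adjusted p = 0.0513) in SF3B1 knockouts, and the PHF5A call was lost without control 1 (adjusted p = 0.0577). Member 77 stood at 175 and 264 CPM in the controls, 124 and 135 CPM in DLC1, 106 and 192 CPM in PHF5A and 119 and 181 CPM in SF3B1 libraries. Its DLC1 libraries lay below both controls and its PHF5A and SF3B1 libraries overlapped them, and no single knockout passed the test.

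The chromosome's share of non-mitochondrial counts was 1.31% and 1.11% in the controls, 1.24% and 1.66% in the DLC1 libraries, 1.20% and 1.35% in the PHF5A libraries and 1.05% and 1.14% in the SF3B1 libraries. The means were 1.21% ± 0.138, 1.45% ± 0.298, 1.27% ± 0.103 and 1.10% ± 0.0673 (SD, n = 2 each), and each knockout's libraries overlapped the controls. Wilson 95% intervals, which cover counting error only, were narrow beside these spreads, from 1.30% to 1.31% for control 1. Without member 74 the means were 0.563% in control, 0.472% in DLC1, 0.438% in PHF5A and 0.493% in SF3B1 libraries. The knockout libraries, at 0.386% to 0.537%, then all lay below both controls, at 0.585% and 0.541%. Without both members of the abundant pair the means were 0.173%, 0.181%, 0.209% and 0.193%. The knockout libraries, at 0.180% to 0.230%, then all lay above both controls, at 0.170% and 0.176%. In these shares, the fall seen without member 74 was therefore that of the pair's other member. The remaining features together did not fall.

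**Figure D1:**
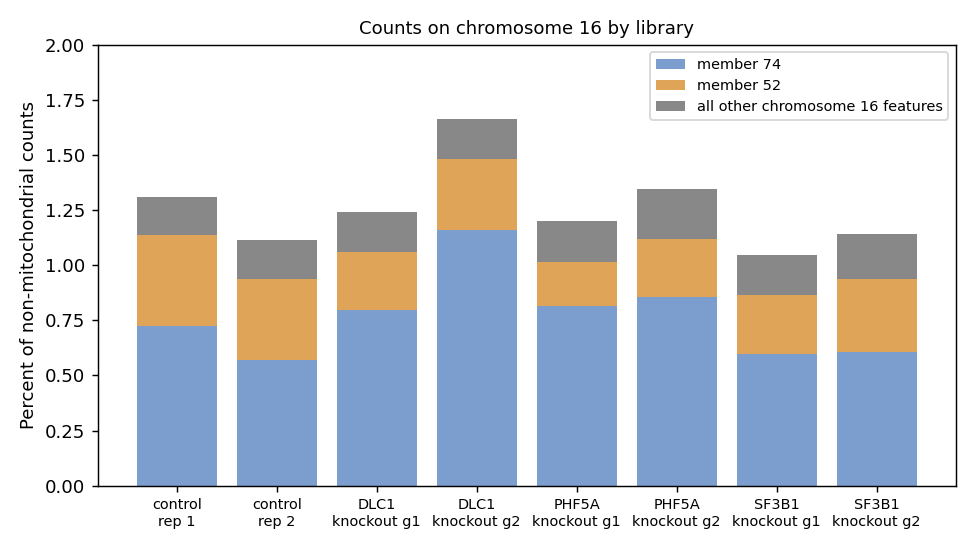
Percent of non-mitochondrial counts on chromosome 16 in each of the 8 libraries, divided into member 74, member 52 and all other features of the chromosome. Member 74 is the largest piece of every bar, and the features other than members 74 and 52 hold 0.170% to 0.230%.

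Fold changes were tested for 81 of the 84 members, within a fit over 15619 features. Members 29, 50 and 54 did not pass the filter on low counts. A member was called where its adjusted p was under 0.05. In DLC1 knockouts 15 members were called, 8 higher and 7 lower, against 18.2% of all tested features called, 10.3% higher and 7.88% lower. In PHF5A knockouts 23 were called, 15 higher and 8 lower, against 31.3% of all features, 17.9% higher and 13.4% lower. In SF3B1 knockouts 11 were called, 8 higher and 3 lower, against 16.1%, 11.0% higher and 5.03% lower. These shares are near the background of each comparison, so they are no result about chromosome 16 as a whole. All 3 comparisons share the control libraries, and their counts are given side by side for that reason.

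The tested members had a median log2 fold change of 0.20 with DLC1, 0.16 with PHF5A and 0.17 with SF3B1 guides, beside 0.10, 0.10 and 0.04 over all tested features. In PHF5A knockouts it was 0.34 without guide 1 and -0.09 without guide 2. Scaling by library size alone moved the median of all features to 0.48, 0.53 and 0.49, and then 27 members were called in DLC1 (23 higher, 4 lower), 31 in PHF5A (26 higher, 5 lower) and 22 in SF3B1 knockouts (21 higher, 1 lower). In that fit 25.5%, 36.7% and 25.3% of all features were called. With DESeq2 the splits were 8 higher and 11 lower, 14 and 14, and 9 and 10, beside 22.0%, 32.6% and 22.4% of all features called. A direction given here for a member is therefore relative to the TMM scaling (trimmed mean of M-values). CPM ratios of non-mitochondrial counts lie 0.18, 0.25 and 0.27 (log2) above the tested fold changes in the DLC1, PHF5A and SF3B1 comparisons.

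Of the libraries, controls 1 and 2 and both DLC1 guides each decided part of the DLC1 count, which was 9 without control 1, 4 without control 2, 3 without guide 1 and 4 without guide 2. The share of all features called moved too, to 8.77%, 2.09%, 1.95% and 6.05% in these fits. The PHF5A count was 13 without control 1, with 16.98% of all features called. The SF3B1 count was 3 without control 1, 3 without control 2, 0 without SF3B1 guide 1 and 17 without PHF5A guide 1, beside 5.36%, 3.53%, 0.907% and 22.2% of all features. In a fit with the W share as a further term, 12 were called in DLC1, 21 in PHF5A and 0 in SF3B1 knockouts, beside 11.8% and 26.0% of all features in DLC1 and PHF5A. In SF3B1 knockouts 2 features of the whole table remained called.

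With the mean of the 3 knockouts set against control, 28 members were called, 16 higher and 12 lower, where 30.8% of all features were called. Under scaling by library size alone the split was 27 higher and 2 lower, and with DESeq2 it was 12 and 14. Of all features, 38.35% and 32.3% were called in these fits. The count fell without control 1 and without control 2, and so did the share of all features called. Called higher in each of the 3 knockouts were 3 members (6, 37 and 70), where 4.76% of all features were, and called lower in each were 2 members (57 and 79), where 2.4% were. In 27 of the 84 members all 6 knockout libraries lay above both controls in CPM, 32.1%, against 29.5% of 16128 nuclear features with at least 40 reads. In 6 members all 6 lay below both controls, 7.14%, against 8.08%. These shares too are near the background.

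**Figure D2:**
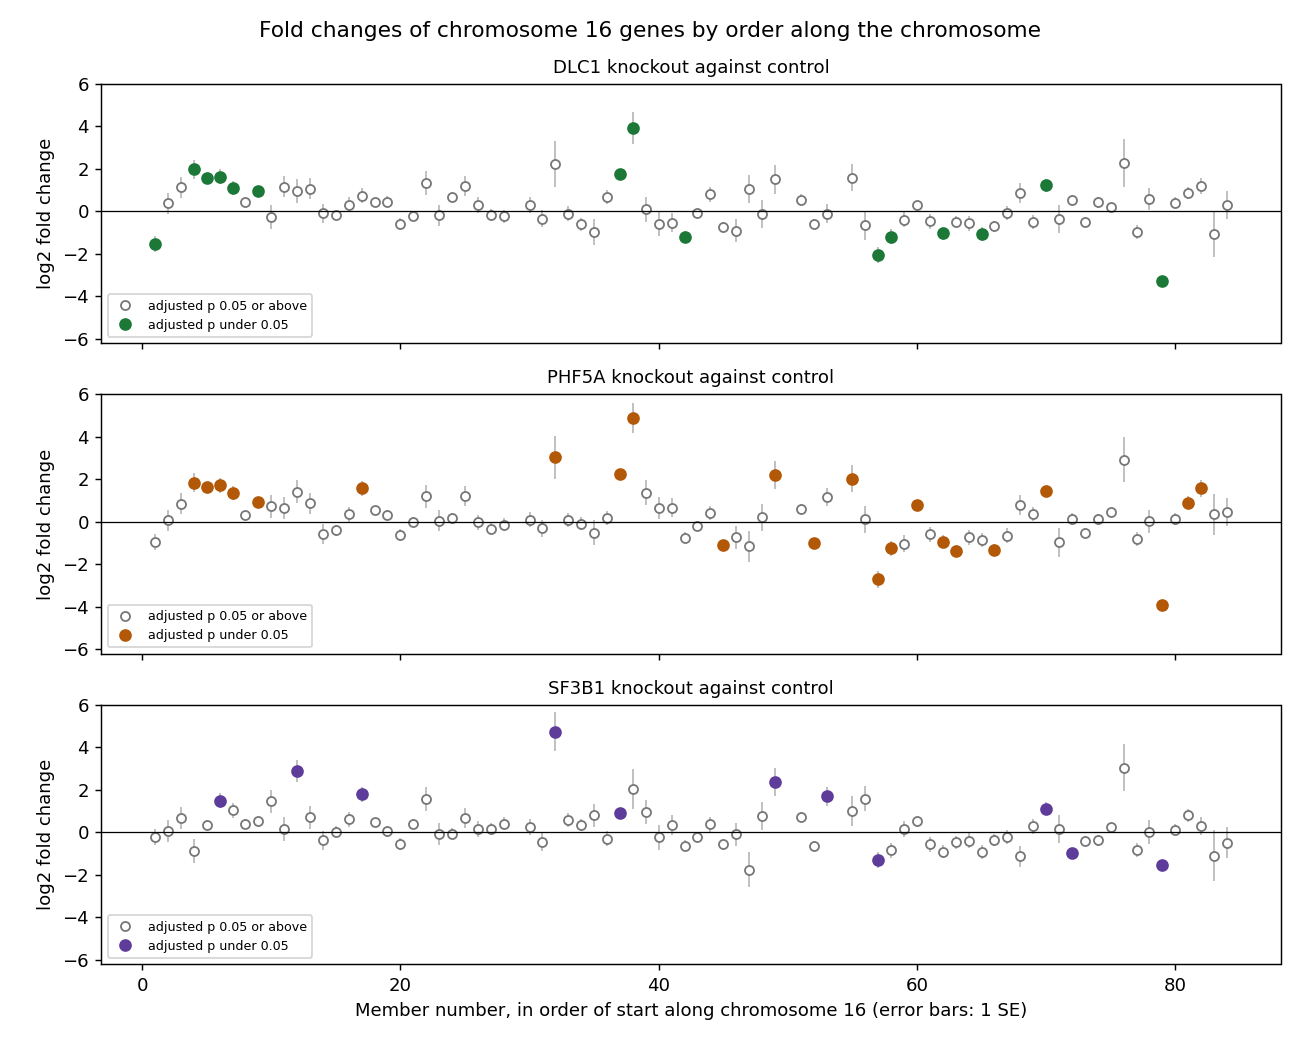
Log2 fold change of each tested member (vertical axis, error bars 1 SE) in order of start along chromosome 16, in 1 panel per knockout, with filled points where the edgeR adjusted p was under 0.05. The lowest filled point in the DLC1 and PHF5A panels is member 79, and filled points above 0 stand together from member 4 to member 9 in the same panels.

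Member 79 (ENSGALG00000056015, chr16:2781457-2794978, minus strand) showed the deepest fall on the chromosome in every knockout among the called members. It stood at 29.9 and 27.1 CPM in the controls, 3.08 and 3.52 CPM in the DLC1 libraries, 1.87 and 2.61 CPM in the PHF5A libraries and 11.4 and 12.1 CPM in the SF3B1 libraries. All 6 knockout libraries lay far below both controls, and the SF3B1 libraries lay between the controls and the other 4 knockout libraries without overlapping either. The log2 fold change was -3.29 (SE 0.26, edgeR adjusted p = 0.000591) in DLC1, -3.92 (SE 0.27, adjusted p = 0.000238) in PHF5A and -1.54 (SE 0.24, adjusted p = 0.00701) in SF3B1 knockouts. The DLC1 and PHF5A calls held under each of 15 alternatives. The SF3B1 call was lost without SF3B1 guide 1 (adjusted p = 0.0611) and in the fit with the W share. Between knockouts, SF3B1 was 1.75 above DLC1 (SE 0.25, adjusted p = 0.0164) and 2.38 above PHF5A (SE 0.26, adjusted p = 0.00816). The first of these was lost without DLC1 guide 2, SF3B1 guide 1 or SF3B1 guide 2, and the second without SF3B1 guide 2. Both were lost in the fit with the W share. Member 79 shares 7238 bases with member 80 (chr16:2787741-2811485) on the opposite strand, which was not called in any knockout.

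Member 37 (ENSGALG00000049360, chr16:2243906-2260598, minus strand) showed the opposite pattern. It stood at 12.1 and 9.85 CPM in the controls, 46.7 and 36.3 CPM with DLC1 guides, 65.9 and 59.5 CPM with PHF5A guides and 28.3 and 21.8 CPM with SF3B1 guides. All 6 knockout libraries lay above both controls, highest in PHF5A and lowest in SF3B1, and no group overlapped another. The log2 fold changes were 1.73 (SE 0.20, edgeR adjusted p = 0.00249), 2.27 (SE 0.20, adjusted p = 0.000741) and 0.92 (SE 0.20, adjusted p = 0.0167) in DLC1, PHF5A and SF3B1 knockouts. The SF3B1 call was lost without control 2, without SF3B1 guide 1 and in the fit with the W share. SF3B1 lay -1.34 (SE 0.19, adjusted p = 0.0199) from PHF5A. That call was lost under 4 of 15 alternatives, among them leaving out either SF3B1 library and the fit with the W share. The neighbouring member 38 (chr16:2260862-2270704, minus strand), outside the rule for named members because of its low level, had 2 reads in the controls together, 78 in DLC1, 151 in PHF5A and 12 in SF3B1 libraries. Its ratio of pooled CPM to control was 18.4 (exact 95% interval 4.93 to 155) in DLC1, 36.6 (9.95 to 305) in PHF5A and 5.2 (1.16 to 47.8) in SF3B1 knockouts, intervals of counting error only. Member 38 was picked after its values were seen. It met the rule on summed reads, and the filter on low counts, through its knockout reads. Its high ratios and calls are therefore partly built in by that selection. The edgeR test called member 38 in DLC1 (log2 fold change 3.915, adjusted p = 0.0112) and PHF5A knockouts (4.865, adjusted p = 0.00203). It was not called in SF3B1 knockouts (2.04, adjusted p = 0.152). The DLC1 call was lost under 1 of 15 alternatives.

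Members 6 and 70 were the other members called higher in all 3 knockouts. Member 6 (ENSGALG00000054667, chr16:608715-623497, minus strand) stood at 9.72 and 4.47 CPM in the controls, 24.5 and 25 CPM in DLC1, 34.7 and 20.3 CPM in PHF5A and 26.9 and 20.8 CPM in SF3B1 libraries. All 6 knockout libraries lay above both controls, and the 3 knockouts overlapped. The log2 fold changes were 1.63 (SE 0.35, edgeR adjusted p = 0.0144), 1.71 (SE 0.35, adjusted p = 0.00625) and 1.49 (SE 0.35, adjusted p = 0.0225). The DLC1 call was lost without control 2, DLC1 guide 1 or guide 2. The SF3B1 call was lost without control 2 or SF3B1 guide 1 and in the fit with the W share. Member 70 (chr16:2630738-2655558, minus strand) stood at 1.62 and 1.61 CPM in the controls, 4.72 and 3.83 CPM in DLC1, 4.81 and 5.62 CPM in PHF5A and 4.68 and 3.68 CPM in SF3B1 libraries, with no overlap between controls and knockouts. Its PHF5A log2 fold change was 1.44 (SE 0.29, edgeR adjusted p = 0.00634), and the DLC1 and SF3B1 values were 1.22 (SE 0.29, adjusted p = 0.0208) and 1.10 (SE 0.30, adjusted p = 0.0346). The DLC1 call of member 70 was lost under 4 of 15 alternatives (adjusted p up to 0.115) and the SF3B1 call under 6 (up to 0.237).

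**Figure D3:**
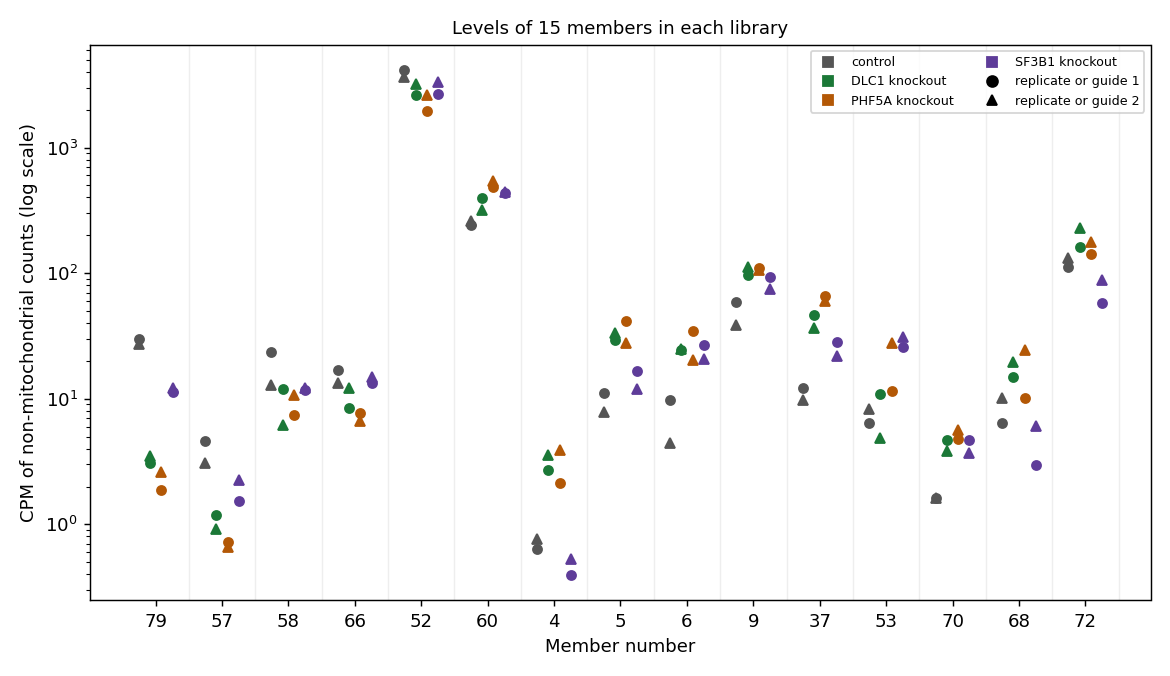
CPM of non-mitochondrial counts (log axis) of 15 members in each of the 8 libraries, with colours for the 4 groups, circles for replicate or guide 1 and triangles for replicate or guide 2. Member 79 falls from 27.1 or more in the controls to 12.1 or less in every knockout library, and the SF3B1 libraries of member 4 lie below its controls, which lie below the DLC1 and PHF5A libraries.

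Along the chromosome, 2 stretches of called members stood out by eye. They were picked after their values were seen, so they carry no test, and many called members lay outside them. The first runs over members 4 to 9, chr16:593181-641102, 47.9 kb. In DLC1 and in PHF5A knockouts 5 of its 6 members were called higher and none lower, with median log2 fold changes of 1.32 and 1.49. In SF3B1 knockouts 1 of 6, member 6, was called higher, and the median was 0.47. Over all tested features, the shares called higher were 10.3%, 17.9% and 11.0%. The other tested members had medians of -0.08, 0.12 and 0.16. Under scaling by library size alone, 5, 5 and 4 of the 6 were called higher, where 25.5%, 36.7% and 25.3% of all features were called in either direction.

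Within this stretch, member 5 (chr16:597507-600758, plus strand) stood at 11.1 and 7.89 CPM in the controls, 29.4 and 33.3 CPM with DLC1 guides, 41.2 and 27.9 CPM with PHF5A guides and 16.7 and 12 CPM with SF3B1 guides. The DLC1 and PHF5A libraries lay well above both controls and above both SF3B1 libraries, which lay just above the controls. The log2 fold changes were 1.55 (SE 0.26, edgeR adjusted p = 0.00759), 1.62 (SE 0.27, adjusted p = 0.00298) and 0.33 (SE 0.27, adjusted p = 0.398). SF3B1 lay -1.29 (SE 0.26, adjusted p = 0.0488) from PHF5A knockouts, a call lost under 9 of 15 alternatives, among them leaving out any library but PHF5A guide 2, with adjusted p up to 0.358. The DLC1 call was lost without control 2 (adjusted p = 0.058).

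Member 7 (chr16:623509-628782, plus strand) stood at 4.65 and 3.49 CPM in the controls, 10.7 and 8.99 CPM in DLC1, 15.7 and 8.96 CPM in PHF5A and 12.6 and 7.43 CPM in SF3B1 libraries. Every knockout library lay above both controls, with a broad spread between the guides of PHF5A and of SF3B1. The edgeR test called it in DLC1 (log2 fold change 1.09, SE 0.34, adjusted p = 0.0474) and PHF5A (1.35, SE 0.34, adjusted p = 0.0144), and its log2 fold change was 1.03 (adjusted p = 0.0633) in SF3B1 knockouts. The DLC1 call was lost in 8 of 15 alternatives, leaving out any control, DLC1 or SF3B1 library among them, with adjusted p up to 0.224. The PHF5A call was lost without control 2 (adjusted p = 0.0884) or PHF5A guide 1 (0.0978). Member 7 shares 509 bases with member 8 on the same strand.

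Member 9 (chr16:632163-641102, plus strand), the most abundant of the stretch, stood at 58.7 and 38.6 CPM in the controls, 97.4 and 112 CPM in DLC1, 111 and 106 CPM in PHF5A and 93.6 and 75.3 CPM in SF3B1 libraries. The knockout libraries all lay above both controls, those of SF3B1 below the other 4. The edgeR test called it in DLC1 (log2 fold change 0.93, SE 0.21, adjusted p = 0.0164) and PHF5A (0.91, SE 0.21, adjusted p = 0.0101) and not in SF3B1 knockouts (0.53, adjusted p = 0.0993). Without control 2 the adjusted p was 0.127 in DLC1 and 0.0809 in PHF5A, and the DLC1 call was also lost without DLC1 guide 1 (0.0623) or guide 2 (0.0869). Member 8 (chr16:628274-630281, plus strand), between members 7 and 9, stood at 15.2 and 13 CPM in the controls, 21.2 and 21.7 CPM in DLC1, 23.9 and 17.6 CPM in PHF5A and 24.2 and 20.6 CPM in SF3B1 libraries and was not called, although all 6 knockout libraries lay above both controls.

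Member 4 (chr16:593181-597384, plus strand) was of low level, outside the rule for named members, and differed between knockouts. It stood at 0.634 and 0.768 CPM in the controls, 2.7 and 3.56 CPM in DLC1, 2.12 and 3.93 CPM in PHF5A and 0.395 and 0.526 CPM in SF3B1 libraries. The DLC1 and PHF5A libraries lay above both controls and the SF3B1 libraries below both. The log2 fold changes were 1.97 (SE 0.45, edgeR adjusted p = 0.0177), 1.85 (SE 0.45, adjusted p = 0.0138) and -0.88 (SE 0.56, adjusted p = 0.29). The DLC1 call was lost under 4 of 15 alternatives (adjusted p up to 0.0855) and the PHF5A call under 3 (up to 0.0787).

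The second stretch runs over members 57 to 66, chr16:2564534-2609054, 44.5 kb. Of its 10 members, 4 were called lower in DLC1, 5 in PHF5A and 1 in SF3B1 knockouts, and member 60, described above, was the 1 called higher, in PHF5A knockouts. Over all tested features, 7.88%, 13.4% and 5.03% were called lower. The median log2 fold changes were -0.64, -0.98 and -0.52, against 0.32, 0.31 and 0.28 for the other tested members. Scaled by library size alone, the medians were -0.27, -0.56 and -0.09. Then 1, 3 and 0 members were called lower, and 1 was called higher in each knockout. Of all features, 25.5%, 36.7% and 25.3% were called in that fit, in either direction.

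Member 58 (chr16:2567828-2571955, minus strand) stood at 23.5 and 12.8 CPM in the controls, 11.9 and 6.22 CPM in DLC1, 7.4 and 10.7 CPM in PHF5A and 11.7 and 12.2 CPM in SF3B1 libraries. The controls themselves were far apart, and all 6 knockout libraries lay below the lower control. Its log2 fold change was -1.19 (SE 0.35, edgeR adjusted p = 0.0396) in DLC1 and -1.24 (SE 0.35, adjusted p = 0.0226) in PHF5A knockouts. Without control 1 the adjusted p was 0.242 and 0.176, and the DLC1 call was also lost without control 2 (0.0548), DLC1 guide 1 (0.0637) or guide 2 (0.195) and the PHF5A call without PHF5A guide 1 (0.0957). Under scaling by library size alone the values were -0.78 (adjusted p = 0.141) and -0.83 (adjusted p = 0.103).

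Member 63 (ENSGALG00000033932, chr16:2593001-2595798, plus strand) stood at 14.6 and 10.4 CPM in the controls, 8.06 and 11.6 CPM in DLC1, 6.52 and 4.96 CPM in PHF5A and 11.1 and 10.5 CPM in SF3B1 libraries. The PHF5A libraries alone lay clearly below all others. The PHF5A log2 fold change was -1.37 (SE 0.29, edgeR adjusted p = 0.0073), a call kept under all 15 alternatives. Member 66 (chr16:2606258-2609054, minus strand) had a like pattern, with 16.9 and 13.3 CPM in the controls, 8.51 and 12.2 CPM in DLC1, 7.75 and 6.61 CPM in PHF5A and 13.4 and 14.8 CPM in SF3B1 libraries. Its PHF5A libraries were again the lowest, and its PHF5A log2 fold change was -1.32 (SE 0.27, edgeR adjusted p = 0.00635), also kept under all 15. In neither member did PHF5A differ from DLC1 past the threshold (adjusted p = 0.316 and 0.397), so a difference between these knockouts was not shown.

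Members 62 and 65 were called lower in DLC1 knockouts. Member 62 (chr16:2589230-2592336, plus strand) stood at 13.2 and 7.54 CPM in the controls and 6.04 and 5.4 CPM in the DLC1 libraries, with 5.28 and 7.56 CPM in PHF5A and 5.76 and 7.43 CPM in SF3B1 libraries. Control 2 lay close to the knockout libraries, and PHF5A guide 2 lay just above it. The DLC1 log2 fold change was -1.04 (SE 0.32, edgeR adjusted p = 0.0461), and the PHF5A value of -0.94 was also called (adjusted p = 0.0454), lost under 6 of 15 alternatives (up to 0.343). Member 65 (chr16:2601206-2604721, plus strand) stood at 7.96 and 5.73 CPM in the controls, 4.14 and 3.28 CPM in DLC1, 4.71 and 4.18 CPM in PHF5A and 3.22 and 5.32 CPM in SF3B1 libraries, all 6 knockout libraries below both controls. Its DLC1 log2 fold change was -1.06 (SE 0.32, edgeR adjusted p = 0.0439). Both DLC1 calls were lost under 6 of 15 alternatives. Among them were leaving out any 1 of the control or DLC1 libraries, and scaling by library size alone (-0.65 and -0.67).

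Member 57 (chr16:2564534-2566948, minus strand), below 5 CPM and outside the rule for named members, was the other member called lower in all 3 knockouts. It stood at 4.65 and 3.07 CPM in the controls, 1.19 and 0.923 CPM in DLC1, 0.727 and 0.661 CPM in PHF5A and 1.52 and 2.23 CPM in SF3B1 libraries. No knockout library reached the lower control. The log2 fold changes were -2.04 (SE 0.37, edgeR adjusted p = 0.00852), -2.71 (SE 0.38, adjusted p = 0.0018) and -1.29 (SE 0.37, adjusted p = 0.039), and the PHF5A call was kept under all 15 alternatives. The DLC1 call was lost under 2 (adjusted p up to 0.0578) and the SF3B1 call under 7 (up to 0.256).

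**Figure D4:**
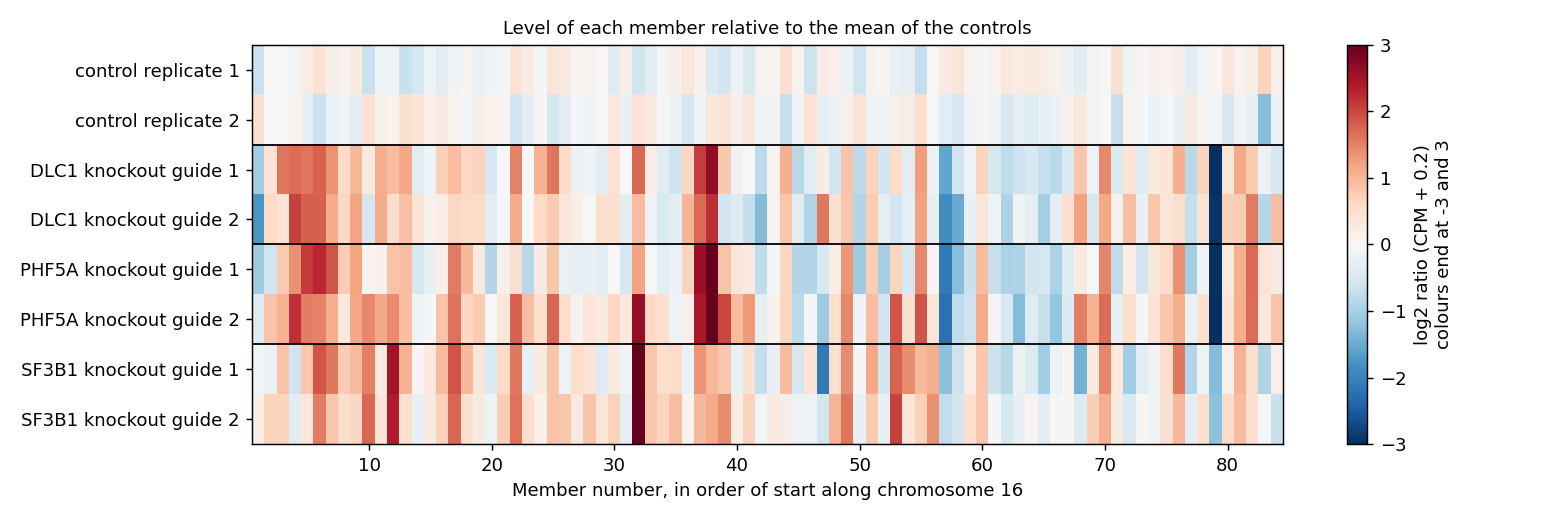
Log2 ratio of each member's CPM to the mean of the controls (colour scale, 0.2 CPM added, colours ending at -3 and 3) in the 8 libraries, with members in order of start. Red cells stand together at members 4 to 9 in the 4 DLC1 and PHF5A libraries, and member 60 is red in all 6 knockout libraries. The other members from 57 to 66 are blue in all 6, except member 59 in both SF3B1 libraries and member 64 in SF3B1 guide 2, and member 79 is blue in all 6 knockout libraries.

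Members 1, 42 and 45, outside the 2 stretches, were called lower in 1 knockout each. Member 1 (ENSGALG00000064248, chr16:504596-506889, minus strand), the first along the chromosome, stood at 55.5 and 119 CPM in the controls, 42.5 and 26.1 CPM in DLC1, 41.6 and 66.2 CPM in PHF5A and 82.3 and 99.6 CPM in SF3B1 libraries. Control 2 held far more than control 1, and DLC1 was the knockout with both libraries below both controls. The DLC1 log2 fold change was -1.56 (SE 0.37, edgeR adjusted p = 0.0201), and it was lost without control 2 (adjusted p = 0.155), DLC1 guide 1 (0.07) or guide 2 (0.121). The PHF5A libraries straddled control 1, with -0.96 (adjusted p = 0.0697).

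Member 42 (chr16:2341309-2453392, plus strand) spans 112 kb and shares 96908 bases with member 41 on the same strand. It stood at 224 and 195 CPM in the controls, 122 and 84.8 CPM in DLC1, 123 and 174 CPM in PHF5A and 128 and 196 CPM in SF3B1 libraries. The DLC1 and PHF5A libraries lay below both controls, and SF3B1 guide 2 lay between them. It was called in DLC1 knockouts (log2 fold change -1.21, SE 0.26, edgeR adjusted p = 0.0156), not in PHF5A (-0.74, adjusted p = 0.0529), and the DLC1 call was lost without any 1 of the control or DLC1 libraries (adjusted p = 0.0518 to 0.0915). Member 45 (chr16:2465052-2467559, minus strand) stood at 26.7 and 23 CPM in the controls, 13.8 and 19.5 CPM in DLC1, 13.3 and 14.1 CPM in PHF5A and 17.8 and 22.5 CPM in SF3B1 libraries. Every knockout library lay below both controls, and the PHF5A log2 fold change of -1.11 (SE 0.25, edgeR adjusted p = 0.0104) passed the test. It was lost without control 1 (adjusted p = 0.05) and under scaling by library size alone (-0.68, adjusted p = 0.0523).

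Members 53, 72 and 82 each passed the test in 1 knockout. Member 53 (ENSGALG00000052240, chr16:2532719-2543055, plus strand) stood at 6.41 and 8.31 CPM in the controls, 10.9 and 4.89 CPM in DLC1, 11.6 and 27.6 CPM in PHF5A and 25.7 and 31.2 CPM in SF3B1 libraries. The SF3B1 libraries lay above both controls and both DLC1 libraries, while the guides of DLC1 and of PHF5A differed more than 2-fold from each other. The SF3B1 log2 fold change was 1.69 (SE 0.44, edgeR adjusted p = 0.0316), and SF3B1 lay 1.79 (SE 0.43, adjusted p = 0.0447) above DLC1 knockouts. The call against control was lost without any 1 of the control or SF3B1 libraries and in the fit with the W share. That against DLC1 was lost under 5 of 15 alternatives. Among them were leaving out DLC1 guide 2 or either SF3B1 library, and the fit with the W share.

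Member 72 (ENSGALG00000066583, chr16:2723783-2725658, plus strand) stood at 111 and 131 CPM in the controls, 162 and 227 CPM in DLC1, 142 and 176 CPM in PHF5A and 58.3 and 87.8 CPM in SF3B1 libraries. The SF3B1 libraries lay below every other library, and the DLC1 and PHF5A libraries above both controls. It was called lower in SF3B1 knockouts, with a log2 fold change of -0.99 (SE 0.27, edgeR adjusted p = 0.0365). That call was lost without control 1, control 2 or SF3B1 guide 1 and in the fit with the W share. It was also lost under scaling by library size alone (-0.57, adjusted p = 0.0797). Member 82 (chr16:2834937-2840037, plus strand) stood at 1.69 and 1.19 CPM in the controls, 2.63 and 4.65 CPM in DLC1, 5.12 and 5.03 CPM in PHF5A and 2.14 and 2.1 CPM in SF3B1 libraries. Every knockout library lay above both controls. The call was made in PHF5A knockouts alone (log2 fold change 1.57, SE 0.38, edgeR adjusted p = 0.0128). It was lost without control 2 (adjusted p = 0.0854).

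Some members of low level had close to 0 reads in the controls. Member 32 (chr16:1943521-1964017, minus strand) had 3 reads in the controls together, 36 in DLC1, 61 in PHF5A and 119 in SF3B1 libraries. Its ratio of pooled CPM to control was 5.67 (exact 95% interval 1.79 to 28.8) in DLC1, 9.85 (3.22 to 49.1) in PHF5A and 34.4 (11.5 to 169) in SF3B1 knockouts. The intervals cover counting error only, and these members were picked after their values were seen. The edgeR test called member 32 in PHF5A (log2 fold change 3.03, adjusted p = 0.0449) and SF3B1 knockouts (4.73, adjusted p = 0.0129). It was not called in DLC1 knockouts (2.24, adjusted p = 0.168). The PHF5A call was lost under 7 of 15 alternatives and the SF3B1 call under 3. Member 12 (chr16:910541-912988, plus strand) stood at 0.211 and 0.279 CPM in the controls, 0.642 and 0.444 CPM in DLC1, 0.601 and 0.991 CPM in PHF5A and 2.31 and 2.1 CPM in SF3B1 libraries. It had 3 and 4 reads in the controls. Member 12 was called in SF3B1 knockouts (log2 fold change 2.88, SE 0.51, edgeR adjusted p = 0.00948), a call lost under 3 of 15 alternatives. Members 32 and 12 met the rule on summed reads, and the filter on low counts, through their knockout reads. Their high fold changes and calls are therefore partly built in by that selection.

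Comparing knockouts directly, without the controls in the contrast, PHF5A and DLC1 differed in 0 of the 81 tested members, where 0.0064% of all features were called. At an unadjusted edgeR p under 0.05 there were 13 members. The share of all features at that threshold was not counted, so the 13 are no result about the chromosome. DESeq2 also called 0 members, beside 1.79% of all features, and the smallest edgeR adjusted p among members was 0.264. SF3B1 and DLC1 knockouts differed in 9 members, 4 higher and 5 lower in SF3B1, 11.1% of the tested members against 4.98% of all features. SF3B1 and PHF5A differed in 5, 1 higher and 4 lower, 6.17% against 1.11%. Whether these shares differ from those of all features was not tested. Both counts were 0 in the fit with the W share, beside 0.102% and 0% of all features. The count of 9 fell without either DLC1 library or either SF3B1 library and rose without either PHF5A library. The count of 5 fell without any single library other than PHF5A guide 1. The share of all features called moved in the same direction in each of these fits. The count of 9 also rose without either control, where the share of all features called fell. Members 5 and 37 were lower and member 79 higher in SF3B1 than in each of the other knockouts, on the side of the controls. The other members called between SF3B1 and DLC1 did not lie that way. In members 12 and 53 SF3B1 lay farther from the controls than DLC1. In members 4, 56, 68 and 72 the SF3B1 and DLC1 libraries lay on opposite sides of the controls.

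Member 68 (chr16:2624695-2626404, plus strand) was among the members called between SF3B1 and DLC1 knockouts. It stood at 6.41 and 10.2 CPM in the controls, 14.9 and 19.5 CPM in DLC1, 10.2 and 24.3 CPM in PHF5A and 2.99 and 6.11 CPM in SF3B1 libraries. Both DLC1 libraries lay above both controls and both SF3B1 libraries below both. SF3B1 lay -2.005 (log2; SE 0.48, edgeR adjusted p = 0.0447) from DLC1, while neither knockout differed from control past the threshold. The call was lost without any 1 of the DLC1 or SF3B1 libraries and in the fit with the W share.

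By position in windows of 500 kb, the first 13 members, chr16:504596-1077860, had median log2 fold changes of 1.07, 0.86 and 0.53 in DLC1, PHF5A and SF3B1 knockouts, with 5, 5 and 2 called higher and 1, 0 and 0 lower. Over all tested features 10.3%, 17.9% and 11.0% were called higher and 7.88%, 13.4% and 5.03% lower. The last window, chr16:2505583-2844285, held 36 members, 34 of them tested, and both abundant genes. Its medians were -0.23, 0.12 and -0.28, with 1, 6 and 3 called higher and 5, 7 and 3 lower. The 18 members between chr16:1558356-2004727 had 0, 2 and 2 called higher and 0 lower in each knockout. These values are descriptions without a test.

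Members were also set beside other features of like genomic span, since spans on chromosome 16 are short. Of the 10 members over 30 kb, 0 were called higher in any knockout and 1, member 42, was called lower, in DLC1 knockouts. By comparison, 18.7%, 30.9% and 16.7% of the 4973 other nuclear features of that span were called higher in DLC1, PHF5A and SF3B1 knockouts, and 2.19%, 4.16% and 2.73% lower. The medians of these members were -0.11, 0.22 and 0.35, against 0.38, 0.45 and 0.21. The 20 members of up to 3 kb had medians of 0.47, 0.15 and -0.13, against -0.32, -0.40 and -0.26 for 1491 other features. Of these members 0, 1 and 1 were called higher and 2, 4 and 2 lower, against 5.23%, 8.32% and 4.56% of the other features called higher and 16.03%, 25.6% and 8.32% lower. The 34 members of 3 to 10 kb, 31 of them tested, had medians of 0.20, 0.21 and 0.24, against -0.18, -0.23 and -0.13 for 4267 other features. Called higher were 5, 10 and 2 and lower 3, 3 and 0. Of the other features 4.83%, 7.57% and 5.79% were called higher and 13.5%, 22.5% and 7.38% lower. The 20 members of 10 to 30 kb had medians of -0.09, 0.12 and 0.33, against 0.09, 0.11 and 0.08 for 4769 other features. Called higher were 3, 4 and 5 and lower 1, 1 and 1. Of the other features of that span 8.22%, 16.7% and 11.9% were called higher and 6.14%, 11.3% and 4.09% lower. No test was made of these differences, and 10 members are few.

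**Figure D5:**
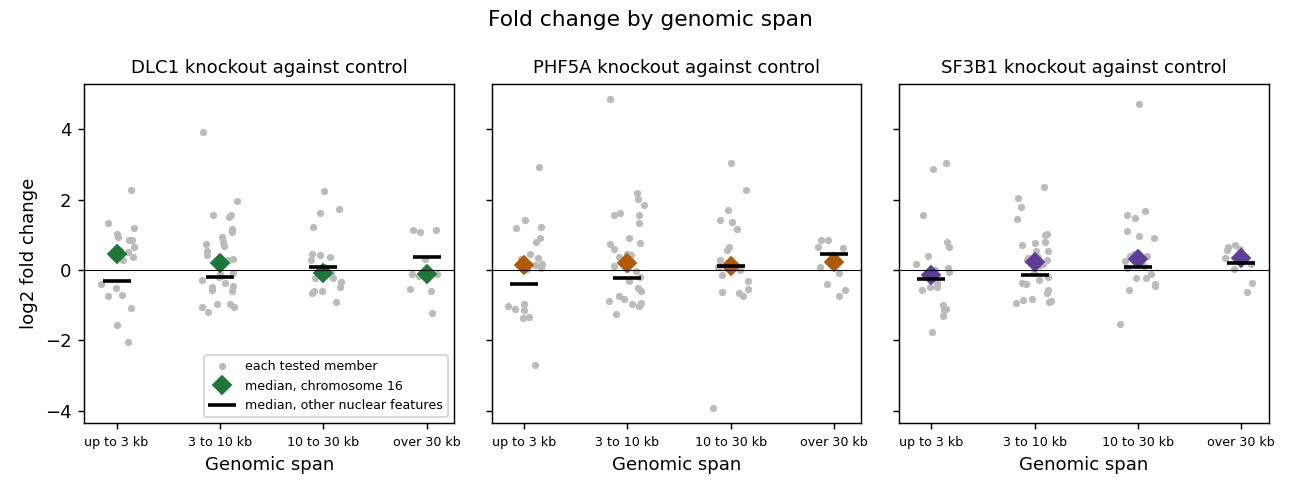
Log2 fold change against control (vertical axis) of tested members by genomic span, in 1 panel per knockout, with a grey point per member, a diamond at the members' median and a bar at the median of the other nuclear features. In the DLC1 panel the bar rises from -0.32 at spans up to 3 kb to 0.38 over 30 kb, while the diamond goes from 0.47 to -0.11. In the PHF5A panel the bar goes from -0.40 to 0.45 and the diamond from 0.15 to 0.22. Both rise in the SF3B1 panel, the bar from -0.26 to 0.21 and the diamond from -0.13 to 0.35.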

How the data were processed

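RNA from 8 libraries was analysed from 1 table of raw counts that the authors deposited, per Ensembl gene ID, with chromosome, start, end, strand and length. Per the labels' protocols, RNA was treated with DNase, selected for high integrity and made into libraries with the Illumina Stranded mRNA Prep kit. Per the submitters' processing notes, reads were handled with featureCounts 1.5.3 (Subread), STAR 2.7.11b, Trimmomatic 0.39 and FastQC 0.12.1, on build GRCg6a. The sources used here give neither annotation release nor strand setting. Lengths in the table are whole genomic spans, so counts may hold intronic reads and reads of nested genes.

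From these counts, CPM were computed over non-mitochondrial counts, and all 8 libraries entered 1 fit in edgeR 4.0.16 (R 4.3.3): filterByExpr kept 15619 features, TMM scaled the libraries, and the quasi-likelihood F-test with Benjamini-Hochberg adjustment over all kept features called members at an adjusted p under 0.05. Standard errors were derived from the F statistic and fold change. The procedure was also run on simulated counts for DLC1 against control alone, drawn at a fixed spread without guide differences. That run does not give the error rates of these data. Library totals of 18226753 to 34698250 counts set the precision, and since no molecular identifiers were used, intervals and the floor of 3 counts hold for counting error alone.

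Members named with all values were, for each knockout, up to 8 rising and 8 falling called members of the largest fold change whose libraries did not overlap the controls and whose mean was at least 5 CPM in either group, the 5 members of the highest mean, and up to 3 members called between each pair of knockouts; other members described are said to lie outside the rule, or were picked after their values were seen. The members, lists and tests were chosen with earlier results of these data known. Alternatives were median-ratio size factors, library size alone, mitochondrial features left out, DESeq2 1.42.0, no filter, a replicate block, the W share as a covariate, and leaving out each library. Gene names, marker lists and sequences were not analysed here.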

Additional observations from a re-analysis of the deposited data

Results flagged for a closer look

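In 4 members the SF3B1 and DLC1 knockouts lay on opposite sides of the controls in the CPM of every library, and the difference between the knockouts passed the edgeR quasi-likelihood test. In none of the 4 did both knockouts pass that test against control, so the opposite sides rest on CPM alone. Member 4 had 9 and 11 reads in the controls and 7 and 8 in the SF3B1 libraries. Of all tested features, 4.98% were called between SF3B1 and DLC1 knockouts. The share of all features that met the whole rule was not counted, so the 4 are no result about chromosome 16 as a whole. Member 4 had a log2 difference, SF3B1 minus DLC1, of -2.85 (adjusted p = 0.0202), and adjusted p over 15 alternatives reached 0.166, with 4 calls lost. Member 68 had -2.005 (adjusted p = 0.0447; up to 0.291, 5 lost), and member 72 had -1.498 (adjusted p = 0.0253; 3 lost). Member 56 (chr16:2553884-2565104, plus strand) had 2.24 (adjusted p = 0.0432; up to 0.281, 8 of 14 lost), at 0.211 and 0.209 CPM in the controls, 0.161 and 0.137 CPM in DLC1 and 0.677 and 0.854 CPM in SF3B1 libraries, levels of a few reads. Member 4 was also on opposite sides of the controls in SF3B1 and PHF5A knockouts, with -2.72 (adjusted p = 0.0337; up to 0.295, 6 of 15 lost). SF3B1 and control libraries were shallower than the DLC1 and PHF5A libraries, and the part of depth in these differences was not tested.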

How the results depend on the processing

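With 2 libraries per group, counts of called members moved with single libraries, and so did the shares of all features called. Leaving out each library in turn gave 3 to 18 called members in DLC1, 13 to 25 in PHF5A and 0 to 17 in SF3B1 knockouts, 0 to 14 for SF3B1 against DLC1, 0 to 5 for SF3B1 against PHF5A, and 9 to 29 for the mean of the 3 knockouts. Library size as the only scaling gave 27 in DLC1, 22 in SF3B1, 5 for SF3B1 against DLC1 and 2 for SF3B1 against PHF5A. Over all features it called 25.5%, 25.3%, 2.11% and 0.333%, in the same order. Without the filter on low counts there were 26 in DLC1, 23 in SF3B1, 5 for PHF5A against DLC1, 18 for SF3B1 against DLC1 and 14 for SF3B1 against PHF5A. The shares of all features called in that fit were 17.8%, 17.9%, 3.18%, 11.4% and 5.00%. DESeq2 gave 19 in SF3B1, 15 for SF3B1 against DLC1 and 8 for SF3B1 against PHF5A, beside 22.4%, 11.7% and 4.23% of all features. The W share as a covariate gave 0 in SF3B1 and 0 for SF3B1 against either other knockout. Of all features, that fit called 0.0128% in SF3B1, 0.102% for SF3B1 against DLC1 and 0% for SF3B1 against PHF5A. The cause of these shifts was not tested, beyond the fewer samples or the larger number of features that some alternatives hold by construction.

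Deviations of same-numbered libraries from their group means correlated at -0.221 to 0.28. With 2 libraries per group, these values cannot show whether same-numbered libraries shared a batch. A fit with the replicate block gave 22 called members in DLC1, 30 in PHF5A, 19 in SF3B1, 0 for PHF5A against DLC1, 14 for SF3B1 against DLC1, 7 for SF3B1 against PHF5A and 31 for the mean. Over all features that fit called 26.5%, 37.4%, 25.9%, 0.0704%, 11.7%, 3.74% and 36.8%, in the same order. Without the block, 18.2%, 31.3% and 16.1% of all features were called in DLC1, PHF5A and SF3B1 knockouts.

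Over all counts the share of chromosome 16 was 0.922% in control, 1.26% in DLC1, 1.09% in PHF5A and 0.943% in SF3B1 libraries, and without member 74 it was 0.563%, 0.472%, 0.438% and 0.493% of non-mitochondrial counts. Without the 2 most abundant members it was 0.173%, 0.181%, 0.209% and 0.193% of non-mitochondrial counts, with control then the lowest. Of 36 calls of 23 named members, 9 were kept under every alternative and 27 were lost under some. Of calls against control, 2 of 15 in DLC1, 9 of 23 in PHF5A and 0 of 11 in SF3B1 were kept under every alternative. For the mean of the 3 knockouts 5 of 28 were kept. Between knockouts, 0 of 9 were kept for SF3B1 against DLC1 and 0 of 5 for SF3B1 against PHF5A. In all these comparisons 0 calls reversed. The share of all features' calls kept under every alternative was not counted, so the kept counts are no result about chromosome 16. With the W share as a covariate, 2 features of the whole table were called in SF3B1 knockouts. That fit called 16 for SF3B1 against DLC1 and 0 for SF3B1 against PHF5A. The counts of 0 kept for SF3B1 were therefore close to fixed by that fit. Depth limits members under 1 CPM, which rest on a few reads per library.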
